A study of Mus musculus with 4 samples.

Results

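Endocytosis through clathrin-coated pits, the caveolar membrane and the early endosome were described here by 53 genes chosen for their known function. They were matched by symbol among the 34745 genes measured. All 53 were found, each as a single row, and 52 passed the filter on low counts. The exception was Ehd3 at counts of 6 and 3 (WT) and of 9 and 5 (KO). The genes fell into 10 roles: 3 clathrin chains, 5 AP-2 subunits, 6 pit initiators and scaffolds, 9 coat and cargo adaptors, 9 fission and uncoating factors, 4 caveolar and flotillin genes, 4 EHD ATPases, 4 early endosome tethers, 6 ESCRT genes and 3 retromer subunits.

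RNA came from mouse macrophages, which the study's text describes as bone marrow-derived (BMDMs), in 4 libraries. WT libraries were from mice with a floxed G3bp1 gene (G3bp1f/f) and KO libraries from G3bp1mac-/- mice, in which these floxed alleles were combined with Lyz2-Cre. Both genotypes therefore carried the floxed alleles, Cre was stated for the KO only, and its activity was limited to cells that use the Lyz2 promoter. No treatment and no animal age was stated for these samples. Each genotype had 2 libraries, numbered 1 and 2 in the labels. The labels did not say whether the libraries came from separate animals, so the p-values below measure only the spread between these libraries. The question was how loss of G3BP1, the scaffold of stress granules, moved the macrophage transcriptome.

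Clathrin heavy and light chains assemble into a lattice on the inner face of the plasma membrane. AP-2 ties this lattice to membrane lipid and to the tails of cargo receptors, dynamin cuts the neck of the pit, and auxilin-type factors such as GAK strip the coat from the vesicle. The vesicle then fuses with the early endosome, where ESCRT complexes sort cargo toward lysosomes and retromer returns it to the cell surface or the Golgi. Caveolae are separate, uncoated pits built from caveolins and cavins and held at the neck by EHD2. Macrophages are known for very active uptake and for few caveolae.

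Each library held between 16724241 and 19747909 counts on genes, at which 3 counts corresponded to between 0.152 and 0.179 CPM (counts of a gene scaled to library size). G3bp1 itself had counts of 1691 and 2875 (WT) and of 1307 and 2296 (KO) (TMM-scaled CPM of 104 and 180 against 70.1 and 117), a log2 fold change of -0.61 (SE 0.40, edgeR quasi-likelihood adjusted p = 0.904). Set against the WT library of its own number, each KO library was lower, by log2 ratios of -0.57 and -0.63, while across numbers the genotypes overlapped. Leaving out single libraries gave log2 fold changes from -1.02 (no KO replicate 2) to -0.19 (no WT replicate 2). Counts per gene do not show the deleted exons on their own. Macrophage markers were abundant in every library, with a summed level over 13 markers of 33210 and 33010 CPM in WT and 28350 and 32610 CPM in KO. Lyz2 alone gave 21870 and 18680 CPM in WT and 16870 and 19500 CPM in KO. Of the 13, 4 had both KO libraries below both WT libraries (C1qa, C1qb, C1qc and Cd68), of which C1qb and C1qc had an unadjusted p under 0.05, and 0 had both above. Over all genes tested, 16.9% had both KO libraries below, 20.0% had both above and 6.63% had an unadjusted p under 0.05.

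None of the 52 tested genes was called in the comparison of KO with WT by edgeR's quasi-likelihood test. A call needed both an adjusted p below 0.05 and more than a 2-fold difference in either direction. The share called among all 12418 genes tested was 0%. At an unadjusted p under 0.05 the test passed 1 of the 52 (1.92%), which was Ehd2, against 6.63% of all genes. The exact test of edgeR called 1 of the 52, again Ehd2, against 1.84% of all genes, and the DESeq2 Wald test called 0 of the 52 against 1.46% of all genes. For 9 of the 52 (17.3%) the lower KO library still exceeded the higher WT library, where the share among all genes was 20.0%. The KO libraries were below both WT libraries for another 9 (17.3%), where the share among all genes was 16.9%. Because the quasi-likelihood test called no gene at all at the spread measured between these libraries, its lack of calls does not show that levels were equal.

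The median log2 fold change was 0.05, beside 0.04 over all genes tested. For 48 of the 52 (92.3%) the log2 fold change was within 0.5 of 0, as for 77.8% of all genes. The 95% confidence interval of 31 genes (59.6%) excluded a 2-fold change in either direction, as for 42.6% of all genes. Among the genes bounded in this way were Ap2m1, Picalm, Dnm2, Tsg101 and Vps35. The widest intervals belonged to Ehd1 and Hip1r.

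**Figure D1:**
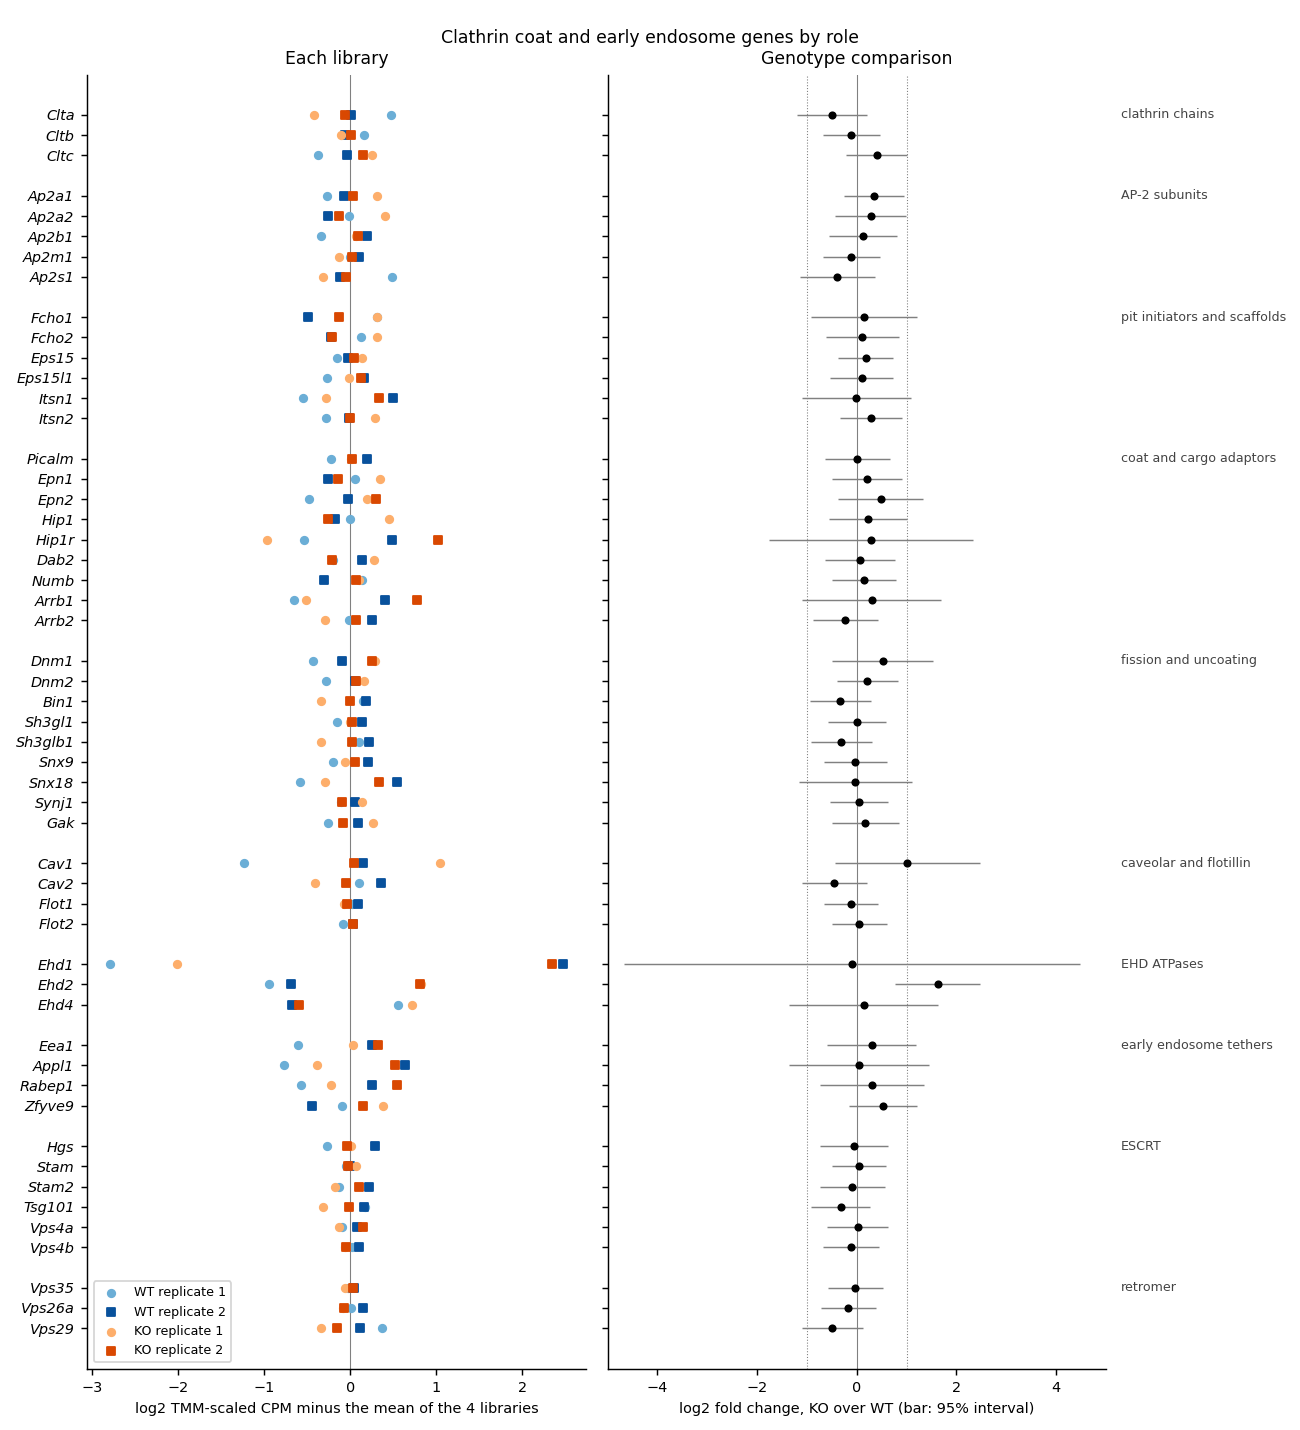
Every tested gene, grouped by role. The left panel plots each library's log2 TMM-scaled CPM minus the mean of the 4 libraries (blue WT, orange KO, circles replicate 1, squares replicate 2), and the right panel the log2 fold change of KO over WT with its 95% confidence interval and dotted lines at 1 and -1. Ehd2 is the only gene whose interval, from 0.77 to 2.47, leaves out 0, and the interval of Ehd1, from -4.68 to 4.48, is the widest.

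By role, the median log2 fold changes ran from -0.16 to 0.30. They were 0.30 over the 4 early endosome tethers, 0.21 over the 9 coat and cargo adaptors, 0.14 over the 3 tested EHD genes, 0.13 over the 6 pit initiators and 0.12 over the 5 AP-2 subunits. For fission and uncoating the median was 0.01, for the caveolar and flotillin genes -0.03, for ESCRT -0.07, for the clathrin chains -0.10 and for retromer -0.16. The EHD median was the least steady, at 0.653 to 1.72 when any library was left out, with Ehd1 at -3.52 to 4.16 in these fits. Without WT replicate 1 the medians of AP-2, of the adaptors, of the tethers and of fission and uncoating turned to -0.05, -0.08, -0.05 and -0.13, that of the clathrin chains to 0.01 and that over all 52 genes to -0.06. The AP-2 median also turned without KO replicate 1, to -0.0077, and the ESCRT median without WT replicate 2, to 0.06. The order of the roles thus changed with the libraries used.

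Long genes tended to have the higher fold changes, more so between the libraries numbered 1 than between those numbered 2. Across the 52 genes the Spearman correlation of log2 fold change with the gene length implied by the deposited values was 0.41, and across all genes tested it was 0.37. For the ratio of KO to WT within number 1 it was 0.346 over the 52 and 0.427 over all genes. Within number 2 it was 0.171 and 0.125. Genes share their libraries and are not independent replicates, so this is a description. The ESCRT and retromer genes had median lengths of 5755 and 3252 bases and the coat and cargo adaptors 9818. With a correction for gene length in the fit, the medians of AP-2, the pit initiators and the adaptors were -0.07, -0.02 and -0.05. Those of the clathrin chains and ESCRT lay further from 0 than before, at -0.23 and -0.20, that of the caveolar and flotillin genes was -0.11 and that of retromer -0.18. The corrected medians were 0.14 for the tethers, 0.05 for EHD and -0.02 for fission and uncoating.

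Clathrin heavy and light chains had fold changes of opposite sign. Clta encodes the light chain LCa and lies at chr4:44004452-44032846 on the plus strand. It had 657 and 478 CPM in WT and 354 and 453 CPM in KO (log2 fold change -0.49, SE 0.28, edgeR quasi-likelihood adjusted p = 0.879). Both KO libraries were below both WT libraries, though KO replicate 2 and WT replicate 2 nearly met. Cltc encodes the heavy chain that forms the legs of the triskelion and lies at chr11:86694351-86757565 on the minus strand. It had 353 and 445 CPM in WT and 546 and 506 CPM in KO (log2 fold change 0.40, SE 0.24, edgeR quasi-likelihood adjusted p = 0.896). Here both KO libraries were above both WT libraries. Cltb, the other light chain, had 67.9 and 58.2 CPM in WT and 56.3 and 61.1 CPM in KO, and its libraries overlapped. Without WT replicate 1 the log2 fold changes of Clta and Cltc were -0.24 and 0.24, and with the length correction that of Cltc was 0.18.

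Per length, the ratio of Clta to Cltc in deposited FPKM was 5.62 and 3.24 in the WT libraries and 1.96 and 2.70 in the KO libraries. The KO ratios were both below the WT ratios, and the WT libraries differed from each other by more than the distance from WT replicate 2 to KO replicate 2. On this measure, which rests on the lengths implied by the deposited values, the light chain exceeded the heavy chain in all 4 libraries. Clta supplied between 91.3% and 94.2% of light chain FPKM.

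AP-2 subunits had fold changes on both sides of 0. Ap2s1, the small sigma subunit, was the most abundant at a mean of 85.2 FPKM, and Ap2a2, which encodes an alpha subunit, the least at 8.20 FPKM. Ap2m1, the mu subunit that reads tyrosine-based sorting signals, had 129 and 139 CPM in WT and 118 and 132 CPM in KO, a log2 fold change of -0.10 with a 95% interval from -0.67 to 0.46. Its libraries overlapped. Ap2a1, encoding the other alpha subunit, had 42.0 and 48.3 CPM in WT and 63.1 and 51.9 CPM in KO (log2 fold change 0.35, SE 0.24). It was the only subunit whose genotypes did not overlap, and 16.7% of its exonic bases also lie in exons of Fuz on the opposite strand. Ap2s1 had 220 and 145 CPM in WT and 127 and 152 CPM in KO, with WT replicate 1 apart from the other 3 libraries. Without that library its log2 fold change went from -0.39 to -0.05. Between the alpha subunits, Ap2a1 took between 59.2% and 66.4% of FPKM with no separation of the genotypes.

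Among the pit initiators and scaffolds, which gather lipid and adaptors at a new pit, all 6 log2 fold changes were between -0.01 and 0.29. Itsn2, an intersectin scaffold, was the most abundant at 16.0 FPKM, with 77.4 and 93.3 CPM in WT and 115 and 93.9 CPM in KO. Its KO libraries were above WT, but KO replicate 2 by less than 1 CPM. Fcho1 was the least abundant at 0.397 FPKM, with 3.70 and 2.13 CPM in WT and 3.70 and 2.74 CPM in KO. The macrophages used Fcho2, its paralogue, for between 96.6% and 97.5% of FCHO messenger per length. Eps15 and Itsn2 were the members of this role in which KO lay above WT.

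Coat and cargo adaptors bind clathrin, lipid and particular receptors. Their log2 fold changes ran from -0.23 to 0.48, and 8 of 9 were above 0, beside 54.6% of all genes tested. Picalm, which keeps pits small and sorts SNARE proteins, was by far the most abundant at 59.1 FPKM. It had 209 and 281 CPM in WT and 246 and 249 CPM in KO, a log2 fold change of 0.01 with a 95% interval from -0.64 to 0.66. Dab2, an adaptor for receptors of the LDL receptor family, had 20.9 and 26.5 CPM in WT and 29.1 and 20.7 CPM in KO (log2 fold change 0.07, SE 0.28). Its ratio of KO to WT was 0.48 (log2) between the libraries numbered 1 and -0.35 between those numbered 2, so it had no common direction. Epn2, an epsin, had 2.53 and 3.45 CPM in WT and 4.03 and 4.32 CPM in KO (log2 fold change 0.48, SE 0.34, edgeR quasi-likelihood adjusted p = 0.922), and it was the only adaptor without overlap.

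Hip1r, which links the coat to actin, was the least abundant adaptor at 0.0843 FPKM, with counts of 7 and 14 (WT) and of 6 and 25 (KO). Its exons share 12.5% of their bases with Vps37b on the opposite strand, which had between 237 and 427 counts, and whether the counting used the strand was not stated. Hip1, the paralogue, made up between 95.2% and 99.2% of the FPKM of the 2 genes. Arrb2 held between 77.7% and 89.8% of beta-arrestin FPKM, the adaptors for G protein-coupled receptors.

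Fission and uncoating factors divided around 0, with a median of 0.01. Dnm2, the dynamin that most cell types use, had 69.4 and 88.3 CPM in WT and 94.3 and 88.9 CPM in KO, a log2 fold change of 0.22 with a 95% interval from -0.39 to 0.83. KO replicate 2 exceeded WT replicate 2 by less than 1 CPM, and the log2 fold change was 0.057 without WT replicate 1 and 0.0047 with the length correction. Dnm1, the neuronal dynamin and the least abundant factor here at 0.108 FPKM, had counts of 17 and 21 (WT) and of 32 and 33 (KO), at a log2 fold change of 0.52 (SE 0.40, edgeR quasi-likelihood adjusted p = 0.934). Dnm2 accounted for between 98.5% and 98.8% of the FPKM of both. Sh3glb1, or endophilin B1, a membrane-bending protein, was the most abundant at 44.3 FPKM. It had 551 and 596 CPM in WT and 405 and 518 CPM in KO (log2 fold change -0.31, SE 0.24, edgeR quasi-likelihood adjusted p = 0.933). Bin1, an amphiphysin, had 80.7 and 82.7 CPM in WT and 57.3 and 72.8 CPM in KO (log2 fold change -0.33, SE 0.24). For Sh3glb1 and Bin1 both KO libraries were below WT, with KO replicate 1 the lower of the 2.

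**Figure D2:**
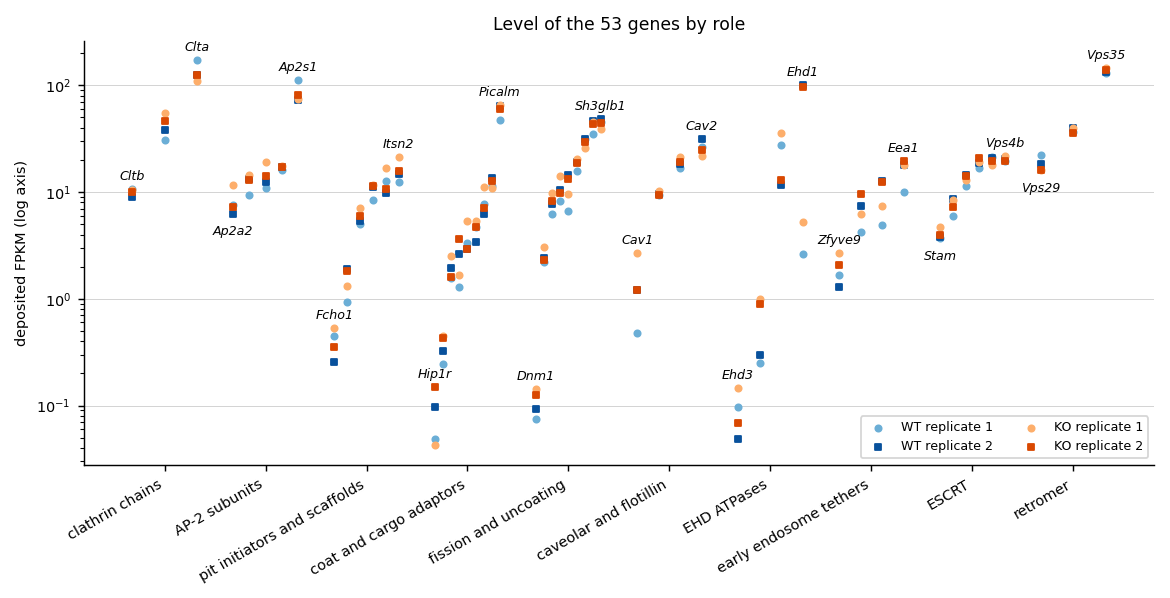
Deposited FPKM of all 53 genes in each library on a log axis, ordered by mean level within each role (blue WT, orange KO, circles replicate 1, squares replicate 2), with the most and the least abundant gene of each role named. Vps35 and Clta are highest at means of 137 and 132 FPKM, and Hip1r, Ehd3 and Dnm1 lie near 0.1 FPKM.

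Caveolar genes and the EHD family held the largest differences in the set. Ehd2, the ATPase that stabilises caveolae at the membrane, lies at chr7:15946977-15967567 on the minus strand. It had counts of 23 and 27 (WT) and of 90 and 94 (KO), or 1.42 and 1.70 CPM against 4.83 and 4.78 CPM. The WT libraries were close to each other and far below both KO libraries. Means ± SD over the 2 libraries of a genotype were 1.56 ± 0.20 CPM for WT and 4.80 ± 0.038 CPM for KO, 3.08-fold higher. The log2 fold change was 1.62 (SE 0.33, edgeR quasi-likelihood adjusted p = 0.289). It passed the adjusted threshold in the edgeR exact test (adjusted p = 0.0451) and not in the DESeq2 Wald test (adjusted p = 0.101). With a term for the replicate number added to the quasi-likelihood fit it was called (adjusted p = 0.000152), as were 5.35% of all genes. With the gene length correction as well it was also called (quasi-likelihood adjusted p = 0.0231), as were 2.96% of all genes. Over all alternatives run, its log2 fold change lay between 1.5 and 1.72.

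Cav1, the main structural protein of caveolae in non-muscle cells, lies at chr6:17306335-17341452 on the plus strand. It had 4.19 and 10.9 CPM in WT and 20.3 and 10.1 CPM in KO. KO replicate 1 was the highest and WT replicate 1 the lowest, while the libraries numbered 2 were nearly equal. The log2 fold change was 1.01 (SE 0.57, edgeR quasi-likelihood adjusted p = 0.879), and leaving out KO replicate 1, WT replicate 1 or WT replicate 2 gave 0.43, 0.49 or 1.83. With a term for the replicate number in that fit it was 1.04 (quasi-likelihood adjusted p = 0.00284). Adding the gene length correction gave 0.86 (quasi-likelihood adjusted p = 0.334), so the call depended on the fit. Cav2, its partner, lies beside it at chr6:17281185-17289115 on the same strand. It had 122 and 146 CPM in WT and 85.7 and 110 CPM in KO (log2 fold change -0.45, SE 0.26, edgeR quasi-likelihood adjusted p = 0.879), with both KO libraries below both WT libraries. Per length, Cav2 was the larger part of caveolin messenger in every library, at 98.2% and 96.3% in WT and 89.0% and 95.4% in KO.

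Flotillins, which mark lipid microdomains, differed little between the genotypes. Flot1 had 45.1 and 47.3 CPM in WT and 42.1 and 43.3 CPM in KO, a log2 fold change of -0.11. Flot2 had a log2 fold change of 0.05 and a 95% interval from -0.50 to 0.60.

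Other genes of caveolae were on a list of 8 from outside the 53, of which 6 could be tested. Of these, 4 passed an unadjusted p under 0.05 and all 4 had KO libraries above WT, while 0 of the 6 passed the adjusted threshold in the quasi-likelihood test, 1 was called by the edgeR exact test and 2 by the DESeq2 Wald test. Over all genes tested, 6.63% had an unadjusted p under 0.05, 20.0% had KO above WT, and the exact and Wald tests called 1.84% and 1.46%. The median log2 fold change of the 6 was 1.23. Cavin2, listed under its older symbol Sdpr, had counts of 18 and 11 (WT) and of 126 and 66 (KO), at a log2 fold change of 2.48 (SE 0.53, adjusted p = 0.293). Cavin1, listed as Ptrf, had counts of 84 and 114 (WT) and of 319 and 284 (KO), at a log2 fold change of 1.35 (SE 0.30, adjusted p = 0.306). Cavin3, listed as Prkcdbp, had counts of 49 and 28 (WT) and of 94 and 102 (KO), at a log2 fold change of 1.10 (SE 0.39, adjusted p = 0.670). These encode the cavin coat of caveolae, and like Ehd2 their libraries did not overlap between the genotypes. The other gene with an unadjusted p under 0.05 was Ror1, which is not a cavin. It had low counts of 5 and 1 (WT) and of 22 and 12 (KO), at a log2 fold change of 2.22 (SE 0.84, edgeR quasi-likelihood adjusted p = 0.709). The remaining 2, which encode pacsins, had both KO libraries below both WT libraries.

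Markers of stromal cells, which carry many caveolae, differed in the same direction. Of 12 stromal markers, all 12 had a log2 fold change above 0, 10 had both KO libraries above both WT libraries and 9 had an unadjusted p under 0.05. Their summed level was 146 and 212 CPM in WT and 587 and 550 CPM in KO, with a median log2 fold change of 1.94. None was called by the quasi-likelihood test, 8 were by the edgeR exact test and 9 by the DESeq2 Wald test. Among the defining ones, Col1a2 had 9.93 and 11.9 CPM in WT and 70.7 and 51.6 CPM in KO, and no stromal marker was at 0. Smooth muscle or pericyte markers summed to 7.15 and 6.84 CPM in WT and 31.5 and 34.2 CPM in KO, with 3 of 6 at 3 counts or fewer in every library. Endothelial markers, another source of caveolae, summed to 33.4 and 24.7 CPM in WT and 57.1 and 37.7 CPM in KO, with Tek and Emcn at 0 in every library. Only 1 of the 8, Vwf, had both KO libraries above WT (26.8 and 19.6 against 49.3 and 34.9 CPM), and log2 fold changes of the 3 with enough counts ran from -0.62 to 0.86 with a median of 0.06. The part of such cells in the levels of Ehd2, Cav1 and the cavins was not tested. In these bulk samples, a different number of cells of a type and a different amount of RNA per cell cannot be told apart.

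**Figure D3:**
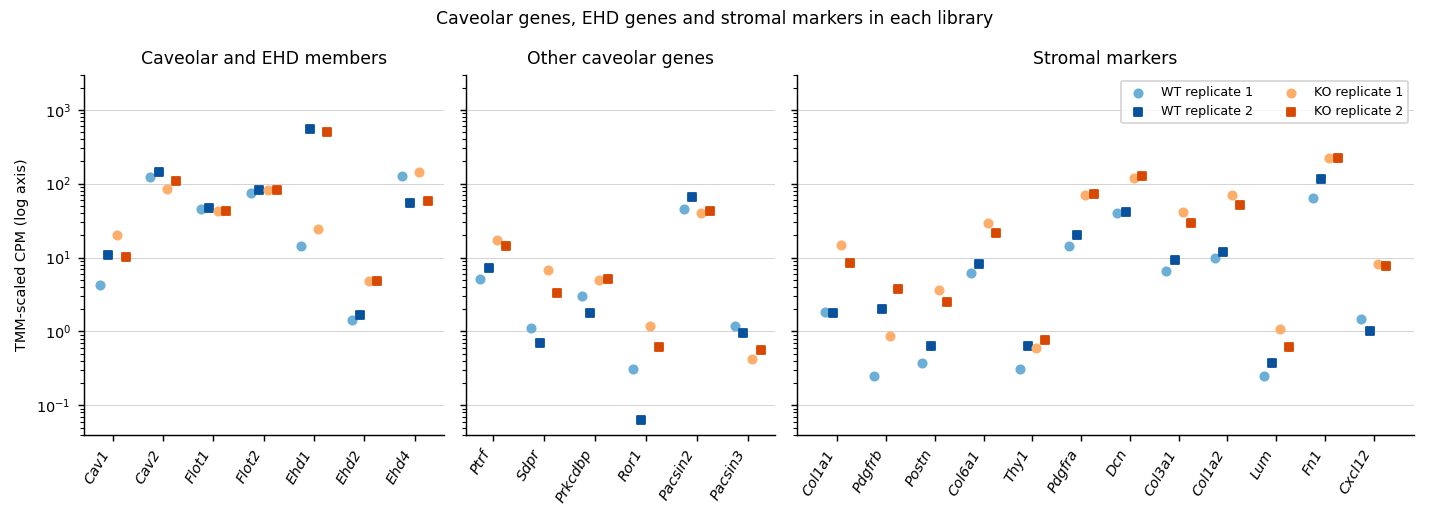
TMM-scaled CPM on a log axis in each library for the tested caveolar, flotillin and EHD genes, for 6 other caveolar genes and for the 12 stromal markers (blue WT, orange KO, circles replicate 1, squares replicate 2). Ehd2 lies at 1.42 and 1.70 CPM in WT and 4.83 and 4.78 CPM in KO, Ehd1 splits by replicate number and not by genotype, and 10 of the 12 stromal markers have both KO libraries above WT.

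The promoters of Ehd2, Cav1 and the cavins with an entry are shown because Ehd2 and Cav1 had the largest fold changes of the 52 genes and the cavins act with them in caveolae, and that of Cav2 because it neighbours Cav1 and had the opposite sign. Each run covers 250 bases before to 50 after the RefSeq start on GRCm38.p6, read 5′ to 3′ on the strand of the gene, and 44 of the 53 genes had an entry. Capitals mark matches, on either strand, to 4 motifs. The first was the TATA box, spelled as TATAAA. The second was the GC box, for which the letters searched were GGGCGG. The third was the inverted or direct CCAAT box, searched by the letters of its name. The fourth was the site of AP-1, the FOS and JUN dimer, with any base allowed in the middle, written TGANTCA. An SRF CArG box and an NF-kB site were searched as well.

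Ehd2, chr7:15967486-15967785, minus strand: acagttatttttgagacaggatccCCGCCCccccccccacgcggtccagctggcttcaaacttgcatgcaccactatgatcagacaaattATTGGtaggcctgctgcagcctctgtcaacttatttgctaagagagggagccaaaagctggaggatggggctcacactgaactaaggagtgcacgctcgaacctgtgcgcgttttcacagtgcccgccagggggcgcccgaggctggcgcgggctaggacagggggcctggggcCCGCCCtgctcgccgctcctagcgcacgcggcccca
Cav1, chr6:17306085-17306384, plus strand: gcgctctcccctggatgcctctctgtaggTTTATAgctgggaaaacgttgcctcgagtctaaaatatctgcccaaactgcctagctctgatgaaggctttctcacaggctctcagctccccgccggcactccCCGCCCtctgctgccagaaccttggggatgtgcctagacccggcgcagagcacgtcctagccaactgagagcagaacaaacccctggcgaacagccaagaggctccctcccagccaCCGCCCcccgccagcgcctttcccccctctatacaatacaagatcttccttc
Cavin1, chr11:100970568-100970867, minus strand: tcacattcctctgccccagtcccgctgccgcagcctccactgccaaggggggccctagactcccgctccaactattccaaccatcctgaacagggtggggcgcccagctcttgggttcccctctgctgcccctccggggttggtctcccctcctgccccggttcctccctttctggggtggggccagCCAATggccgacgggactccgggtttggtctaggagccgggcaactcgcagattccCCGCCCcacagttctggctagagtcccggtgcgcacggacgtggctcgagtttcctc
Cavin2, chr1:51288876-51289175, plus strand: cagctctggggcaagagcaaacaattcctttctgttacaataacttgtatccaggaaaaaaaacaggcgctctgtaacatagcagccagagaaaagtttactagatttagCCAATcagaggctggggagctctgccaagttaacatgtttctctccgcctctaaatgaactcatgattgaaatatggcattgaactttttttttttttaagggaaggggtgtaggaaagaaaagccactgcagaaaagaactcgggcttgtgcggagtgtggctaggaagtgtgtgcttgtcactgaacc
Cav2, chr6:17280935-17281234, plus strand: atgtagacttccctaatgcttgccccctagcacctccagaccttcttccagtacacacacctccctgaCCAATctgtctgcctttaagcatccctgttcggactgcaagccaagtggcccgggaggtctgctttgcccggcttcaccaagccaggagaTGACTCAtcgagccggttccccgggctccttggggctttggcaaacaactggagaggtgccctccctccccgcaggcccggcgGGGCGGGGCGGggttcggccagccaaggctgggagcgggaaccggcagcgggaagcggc

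No motif was found in all of Ehd2, Cav1, Cavin1 and Cavin2. GC boxes were in Ehd2 (2 matches), Cav1 (2), Cavin1 (1) and Cav2 (2, which overlap), and this motif was in 35.9% of 32544 promoters. CCAAT boxes were in Ehd2, Cavin1, Cavin2 and Cav2, against 37.4% of promoters. The TATA box in Cav1 was on the opposite strand, a motif found in 13.6% of promoters, and the AP-1 site was in Cav2, against 7.79%. Neither the CArG box (1.64% of promoters) nor the NF-kB site (8.49%) was matched in these windows. A match is a description of letters and not of binding.

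The rest of the EHD family was set apart by the spread between the libraries of a genotype. Ehd1, which drives recycling from endosomes to the surface, lies at chr19:6276725-6300096 on the plus strand. It had counts of 230 and 8661 (WT) and of 452 and 9760 (KO), or 14.2 and 544 CPM against 24.3 and 496 CPM. Its level was low in both libraries numbered 1 and high in both numbered 2, whatever the genotype. The library numbered 2 exceeded that numbered 1 by 38.3-fold in WT and by 20.4-fold in KO, the 41st and 48th largest such ratios among 12418 genes. The genotype comparison of Ehd1 gave a log2 fold change of -0.10 (SE 1.80), which was -3.52 without KO replicate 2 and 4.16 without WT replicate 2. Ehd4 went the other way, with 128 and 55.0 CPM in WT and 144 and 58.0 CPM in KO, so the library numbered 2 held 0.429 times the level of the library numbered 1 in WT and 0.402 times in KO.

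As a result the main EHD transcript depended on the replicate number. Ehd1 made up 8.69% and 89.3% of the family's FPKM in WT and 12.5% and 87.4% in KO. Ehd4 made up 90.2% and 10.4% in WT and 84.8% and 11.7% in KO. Ehd2 stayed between 0.265% and 2.36% and Ehd3 between 0.0433% and 0.347%. What the replicate numbers stand for was not stated.

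A difference over 2-fold between the libraries numbered 2 and 1, in the same direction in both genotypes, was seen for 3 of the 52 genes. Arrb1 and Ehd1 were higher in number 2, where the share of all genes was 4.36%, and Ehd4 was lower, where it was 2.42%. Arrb1, a beta-arrestin, had 20.3 and 42.2 CPM in WT and 22.3 and 54.6 CPM in KO. Arrb1, Ehd4, Appl1, Rabep1, Itsn1 and Snx18 are named for this spread after their values were seen.

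**Figure D4:**
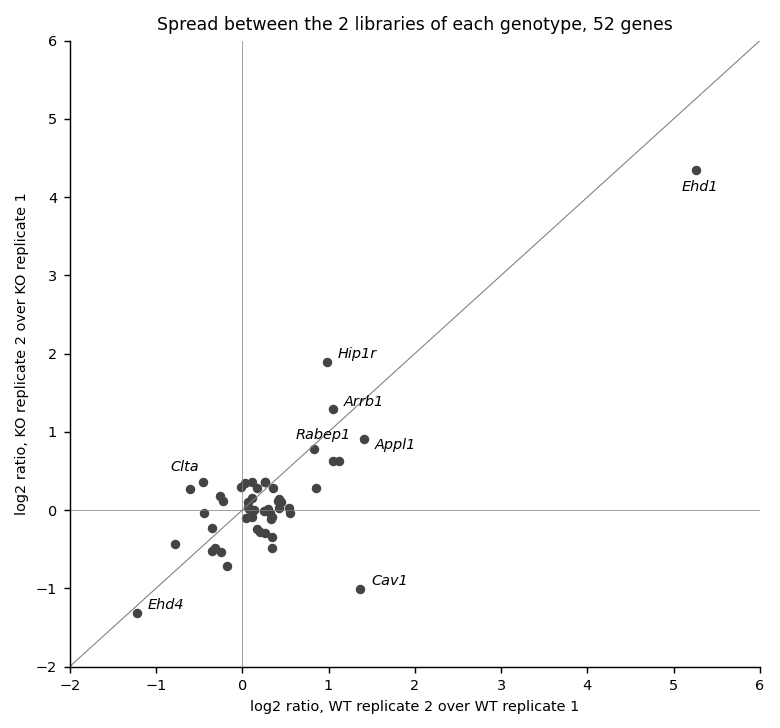
Log2 ratio of the library numbered 2 over that numbered 1, in WT on the horizontal axis and in KO on the vertical axis, for the 52 tested genes (1 point each) with the line of equal ratios. Ehd1 lies far out at 5.26 and 4.35, Ehd4 at -1.22 and -1.31, and Cav1 falls off the line at 1.37 and -1.0.

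Early endosome tethers receive incoming vesicles, and all 4 had log2 fold changes above 0. Eea1, which tethers membranes bearing RAB5, was the most abundant at 16.4 FPKM. It had 81.4 and 148 CPM in WT and 127 and 155 CPM in KO (log2 fold change 0.30, SE 0.35, edgeR quasi-likelihood adjusted p = 0.964). WT replicate 1 was below the other 3 libraries, and without it the log2 fold change was -0.06. Zfyve9, the adaptor SARA that brings SMADs to TGF-beta receptors on endosomes, was the least abundant at 1.93 FPKM. It had 11.8 and 9.23 CPM in WT and 16.4 and 14.0 CPM in KO (log2 fold change 0.53, SE 0.27, edgeR quasi-likelihood adjusted p = 0.848). It was the only tether without overlap between genotypes, and 10.9% of its exonic bases overlap a gene on the opposite strand that had 0 counts. Appl1, an effector of RAB5 on early endosomes, had 46.9 and 125 CPM in WT and 61.0 and 115 CPM in KO. Rabep1, which encodes rabaptin-5, had 49.0 and 87.2 CPM in WT and 62.3 and 107 CPM in KO. For Eea1, Appl1 and Rabep1 the library numbered 2 held more than that numbered 1 in both genotypes.

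Among the pit and fission genes Itsn1 and Snx18 showed the same spread. Itsn1 had 33.4 and 69.1 CPM in WT and 40.1 and 61.7 CPM in KO. Snx18, a sorting nexin that works with dynamin, had 31.3 and 68.1 CPM in WT and 38.4 and 59.1 CPM in KO.

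ESCRT genes, which sort ubiquitinated cargo into the lumen of the endosome, stayed within -0.32 and 0.05. Tsg101, the ubiquitin-binding subunit of ESCRT-I, had 89.7 and 88.9 CPM in WT and 64.0 and 78.8 CPM in KO, a log2 fold change of -0.32 with a 95% interval from -0.92 to 0.27. The WT libraries nearly coincided and both KO libraries were below them. Vps4b, an ATPase that recycles the ESCRT filament, was the most abundant at 20.4 FPKM and had 210 and 222 CPM in WT and 199 and 200 CPM in KO, also without overlap, at a log2 fold change of -0.12. Stam, the least abundant at 4.03 FPKM, had 44.1 and 45.6 CPM in WT and 48.0 and 44.9 CPM in KO. Vps4b made up between 48.7% and 54.0% of the FPKM of Vps4a and Vps4b, at implied lengths of 3079 bases (Vps4a) and 10171 bases (Vps4b). In counts Vps4b was the larger, with 3406 and 3538 (WT) and 3699 and 3940 (KO). Its paralogue Vps4a had counts of 877 and 971 (WT) and of 978 and 1257 (KO).

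Retromer subunits all had log2 fold changes below 0, and none was called. Vps35, the backbone of the complex, was the most abundant of all 53 genes at 137 FPKM, and 97.3% of genes tested were at or below it. It had 430 and 452 CPM in WT and 418 and 447 CPM in KO, a log2 fold change of -0.03 with a 95% interval from -0.58 to 0.52. Vps26a had both KO libraries below WT at a log2 fold change of -0.16. Vps29 had 218 and 183 CPM in WT and 134 and 152 CPM in KO (log2 fold change -0.49, SE 0.24, edgeR quasi-likelihood adjusted p = 0.846). Its KO libraries were both below WT, and per length the ratio of Vps29 to Vps35 was 0.173 and 0.138 in WT and 0.109 and 0.116 in KO. The size of that ratio rests on the lengths implied by the deposited values, 9338 bases for Vps29 and 3180 for Vps35. Annotated exons covered 6148 and 8899 bases.

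Further genes of the same pathways were counted from lists outside the 53. These counts stand beside shares over all genes tested of 6.63% with an unadjusted p under 0.05, 20.0% with both KO libraries above both WT libraries and 16.9% with both below. Of 28 other coat, adaptor and fission genes, 20 were tested, 1 had an unadjusted p under 0.05 and 5 had KO above WT with 0 below, at a median log2 fold change of 0.14. The gene with the smallest p was Ston1, a stonin, with counts of 4 and 4 (WT) and of 39 and 15 (KO). Of 17 other early endosome genes, 17 were tested and 0 had an unadjusted p under 0.05, with 3 above and 1 below, at a median of 0.06. Rbsn, a RAB5 effector, had 20.5 and 23.5 CPM in WT and 32.4 and 29.7 CPM in KO.

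Of 27 other ESCRT genes, 25 were found and 23 tested. For these, 0 had an unadjusted p under 0.05, 3 had KO above WT and 7 below (over all genes, 20.0% and 16.9%), at a median of -0.08. Chmp2a, an ESCRT-III subunit, had 278 and 219 CPM in WT and 153 and 191 CPM in KO. Of 16 other retromer and sorting nexin genes, all tested, 0 had an unadjusted p under 0.05, 3 lay above and 4 below (against the same shares), at a median of 0.01. Snx27, which recruits cargo to retromer, had the smallest p of these, with 84.3 and 81.5 CPM in WT and 172 and 105 CPM in KO (log2 fold change 0.74, SE 0.31, edgeR quasi-likelihood adjusted p = 0.790). In these 4 lists 0 genes were called by the quasi-likelihood test, by the edgeR exact test or by the DESeq2 Wald test. Over the 82 tested genes of the 5 lists, 5 had an unadjusted p under 0.05, close to the 6.63% of all genes, and 4 of these were on the list of other caveolar genes.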

How the data were processed

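Total RNA from mouse macrophages gave 4 libraries, 2 WT and 2 KO, grouped by their titles. The authors filtered reads with Seqtk, aligned them with HISAT2 2.0.4 and counted fragments per gene with StringTie 1.3.3b. They deposited raw counts and FPKM of 34745 genes. The deposited FPKM were scaled by the library total and gene length only, since dividing count by FPKM gave the same length in every library to within 0.0034% (10314 genes). The labels list build mm39, whereas 27686 of the 34267 gene identifiers shared with GENCODE M21 had identical positions on GRCm38, so coordinates are printed as deposited and belong to that build. Whether counting used the strand was not stated.

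Tests used edgeR 4.0.16 in R 4.3.3. filterByExpr (minimum count 10, minimum total 15) kept 12418 of 17991 genes with any count. Libraries were TMM-scaled (factors 0.955 and 0.942 in WT, 1.12 and 0.997 in KO). The model held genotype alone, and glmQLFTest was two-sided with Benjamini-Hochberg adjustment over all genes tested. SE and 95% intervals came from the F statistic. Log2 ratios between single libraries had 0.5 counts added. Levels of different genes were compared in FPKM and those of libraries in CPM. Shares, ratios and rankings between genes therefore depend on the gene lengths implied by the deposited values. Alternatives were DESeq2 1.42.0 size factors and Wald test, edgeR's exact test, no filter, a replicate block, a loess correction for gene length (span 0.5), both together, no minimum fold change and leaving out each library. The dispersion setting of the exact test was changed after a first count from it and an earlier count from these data had been seen. The steps were tested on simulated data. There, the fit with genotype alone recovered 198 of 200 added changes without a difference between the replicate numbers. With the difference measured between libraries numbered 1 and 2 it recovered 0, and the fit with a replicate block recovered 200. The simulated difference was the same in both genotypes, as the block assumes, so its recovery was built in and does not show which fit suits these libraries.

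The genes and lists were chosen with earlier results of these data known. Named with values were a fixed set (Clta, Cltb, Cltc, Ap2m1, Dnm2, Dab2, Cav1, Cav2, Ehd2, Eea1, Tsg101 and Vps35), up to 6 genes a direction with the largest change without overlap, genes with an unadjusted p under 0.05, and the most and least abundant gene of each role. Itgam named more than 1 row and was left out of the macrophage markers. The common biological coefficient of variation was 0.343 in the fit with genotype alone.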

Additional observations from a re-analysis of the deposited data

How the results depend on the processing

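The quasi-likelihood fits without a replicate term called 0 genes, also after leaving out any library (0 to 0 over all genes and over the 52), which says nothing about stability, since these fits called no gene in any setting. Over all genes, the DESeq2 Wald test called 181 and the edgeR exact test 229, of which 0 and 1 were among the 52. The labels do not say what the replicate numbers mark, and with 2 libraries a genotype the deviations of same-numbered libraries correlated at 0.727. The common biological coefficient of variation was 0.343 without and 0.169 with the replicate block. With the replicate block, 664 genes were called, 2 of them among the 52 (Cav1 at 1.04, adjusted p = 0.00284, and Ehd2 at 1.62, adjusted p = 0.000152), and 3.85% of the 52 compares with 5.35% of all genes. With the replicate block and the gene length correction together, 368 were called, 1 of them among the 52 (Ehd2 at 1.52, adjusted p = 0.0231), and Cav1 was no longer called (0.86, adjusted p = 0.334). G3bp1 was at -0.601 (adjusted p = 0.0853) with the replicate block and at -0.748 (adjusted p = 0.0343) with both. The EHD median was 0.296 under the block.

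With the gene length correction the group medians were -0.23 (clathrin), -0.0721 (AP-2), -0.0212 (pit initiators), -0.0549 (adaptors), -0.113 (caveolar) and -0.199 (ESCRT), and with the replicate block as well -0.223, -0.0601, -0.00754, -0.0431, -0.113 and -0.2.

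Leaving out each library in turn moved medians from -0.0638 to 0.134 (52 genes), -0.243 to 0.0147 (clathrin), -0.0536 to 0.136 (AP-2), 0.134 to 0.283 (pit initiators), -0.0826 to 0.212 (adaptors), -0.127 to 0.163 (fission), -0.0728 to -0.0133 (caveolar), -0.0545 to 0.756 (tethers), 0.653 to 1.72 (EHD), -0.201 to 0.0559 (ESCRT) and -0.227 to -0.127 (retromer).

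Signs of log2 fold changes near 0 turned as follows, and none of these genes was called in any fit. Under the length correction Dab2 was -0.171, Fcho1 -0.0368, Picalm -0.0549 and Stam -0.18, and with the replicate block as well -0.182, -0.00338, -0.0431 and -0.179. Picalm was -0.0236 with DESeq2 size factors and with the Wald test and -0.000534 without a filter. Ehd1 was 0.296 with the replicate block and 0.188 with the length correction added. Over the fits that left out a library, the ranges were -0.243 to 0.0147 for Cltb, -0.193 to 0.299 for Dab2, -0.0642 to 0.76 for Eea1, -0.0781 to 0.0203 for Vps35, -0.0077 to 0.527 for Ap2a2, -0.23 to 0.597 for Fcho1, -0.18 to 0.212 for Picalm, -1.01 to 0.949 for Hip1r, -3.52 to 4.16 for Ehd1 and -0.00073 to 0.0961 for Stam. A fit with 1 library in a genotype assumes that it varies like the other genotype. The cause of these changes was not tested. A count of 3 corresponded to 0.152 to 0.179 CPM, and Ehd3 was at 3 counts in WT replicate 2.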

Other observations

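Markers of other cell types were read in the same libraries. Neutrophil markers summed to 22.1 and 21.2 CPM in WT and 7.73 and 11.3 CPM in KO, with Mpo and Elane at 0 in every library. Mast cell or basophil markers summed to 34.3 and 36.9 CPM in WT and 18.5 and 22.4 CPM in KO, with Mcpt8 at 0. Dendritic cell markers summed to 270.0 and 384 CPM in WT and 393 and 426 CPM in KO.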
